A study of Mus musculus with 12 samples.

Results

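The transforming growth factor beta (TGF-beta) ligands Tgfb1, Tgfb2 and Tgfb3, the related ligand Bmp15, and 5 receptors of the same superfamily, Tgfbr1, Acvr1, Acvrl1, Acvr2a and Acvr2b, were followed in 12 mouse melanoma tumours. These 9 genes were chosen by name, as the listed TGF-beta ligands, Bmp15 and type I and type II receptors, and make up 9 of the 909 genes named among 1246 probe sets of a focused Affymetrix array. Activin enters the set through its receptors, as none of the 4 ligands is an activin subunit. Each gene had 1 probe set, read as a log2 value of hybridisation signal. The 4 groups compared, of 3 arrays each, were Tm1N3 tumours in knockout hosts, Tm1N3 tumours in wild-type hosts, Tm1G3 tumours in knockout hosts and Tm1G3 tumours in wild-type hosts. Tm1N3 and Tm1G3 are melanoma cell lines that the labels call Gal3 expressing and Gal3 silenced, and they were injected into mice. The hosts were wild-type mice or Gal3 -/- mice, which lack galectin-3, a lectin encoded by Lgals3. The labels give no strain, age, sex, injection site or tumour age, do not say how the line was silenced or whether either line is 1 clone, and leave unsaid whether the replicates came from separate mice. The p-values therefore measure only the spread between these arrays.

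TGF-beta ligands are secreted in a latent form and, once released, bring together 2 kinds of transmembrane kinase: a type II receptor binds the ligand and phosphorylates a type I receptor, which in turn phosphorylates Smad transcription factors. Activins and bone morphogenetic proteins (BMPs) use the same layout with other receptor pairs. In tumours the pathway is known for restraining the growth of many epithelial cells, for activating fibroblasts, for damping T cell responses and for acting on vessel walls.

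Before the members, the silenced gene itself was checked, by a probe set whose name marks probes shared with other transcripts. It read 9.35, 9.69 and 10.55 in Tm1N3 tumours of knockout hosts and 9.80, 9.72 and 10.39 in Tm1N3 tumours of wild-type hosts, against 9.15, 9.80 and 8.98 in Tm1G3 tumours of knockout hosts and 9.52, 9.33 and 9.99 in Tm1G3 tumours of wild-type hosts. The line difference of Lgals3 averaged over hosts was 0.46 ± 0.23 (moderated SE) and did not pass the test (limma, adjusted p = 0.376), and the groups overlapped. The host difference averaged over lines was -0.21 ± 0.23 (limma, adjusted p = 0.852). In Tm1G3 tumours of knockout hosts, labelled silenced and Gal3 -/-, it still averaged 9.31. That is above the 12-array mean of Acvr1, 9.15, which lay at percentile 86.0 of all probe sets. Whether this signal comes from Lgals3 RNA was not tested. The labels of line and host were used as given, and the tests of Lgals3 neither bear out nor contradict them. Of 11 listed melanocyte markers only Kit and Mcam were on named probe sets, so the melanoma origin of the RNA could not be checked on its pigment genes. Pearson correlations across probe sets between any pair of arrays lay between 0.976 and 0.998.

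Which members differ between the tumour lines was the first question. Averaged over both hosts, Tgfbr1, the type I receptor kinase for TGF-beta, was 1.38-fold higher in Tm1N3 than in Tm1G3 tumours, and Bmp15, an oocyte-derived ligand of the BMP branch known for its part in ovarian follicle growth, was 1.28-fold lower. No other member passed the test in that comparison. Members called thus numbered 2 of 9, 1 higher and 1 lower, where 4.25% of all probe sets were called in either direction (limma, Benjamini-Hochberg adjusted p under 0.05). The members were chosen with earlier results of these data known, so the counts of called members do not test the set. Of 32 other measured genes of the superfamily, none was called in that comparison. Within wild-type hosts 1 of 9 members was called, Bmp15, where 0.883% of all probe sets were called. There 2 of the 9, Bmp15 and Tgfbr1, had an unadjusted p under 0.05, against 163 of 1246 probe sets. Within knockout hosts 0 of 9 were called, with 0.722% of all probe sets called. Of the 9, 3 had an unadjusted p under 0.05 there, Tgfbr1, Bmp15 and Tgfb3, against 9.47% of all probe sets.

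Tgfbr1 read 8.91, 9.25 and 9.08 in Tm1N3 tumours of knockout hosts, against 8.86, 8.57 and 8.71 in Tm1G3 tumours of knockout hosts. In wild-type hosts it read 9.23, 9.57 and 9.19 in Tm1N3 tumours, against 8.90, 8.90 and 8.54 in Tm1G3 tumours. All 6 arrays of Tm1N3 tumours were above all 6 of Tm1G3 tumours, though the lowest Tm1N3 array and the highest Tm1G3 arrays lay close together. The average difference was 0.46 ± 0.10 on the log2 scale (95% interval 0.24 to 0.68, limma adjusted p = 0.0235). It was 0.37 ± 0.14 in knockout hosts (adjusted p = 0.367) and 0.55 ± 0.14 in wild-type hosts (adjusted p = 0.0829), neither of which passed alone. The difference between these 2 values, tested as the interaction of line and host, was -0.18 ± 0.20 (limma, adjusted p = 0.996). The averaged call for Tgfbr1 was lost when replicate 2 of either Tm1N3 group, replicate 2 or 3 of Tm1G3 tumours in knockout hosts or replicate 3 of Tm1G3 tumours in wild-type hosts was left out, with values from 0.40 to 0.50 and adjusted p values up to 0.0732 over the 12 fits that left out 1 array. In bulk tumours a smaller number of cells of a type and less RNA per cell cannot be told apart.

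Bmp15 moved the other way. It read 3.63, 3.55 and 3.42 in Tm1N3 tumours of knockout hosts, against 3.79, 3.80 and 3.84 in Tm1G3 tumours of knockout hosts. In wild-type hosts it read 3.68, 3.65 and 3.60 in Tm1N3 tumours, against 4.09, 3.97 and 4.20 in Tm1G3 tumours. Every Tm1N3 array was below every Tm1G3 array. The average difference was -0.36 ± 0.05 (95% interval -0.47 to -0.24, limma adjusted p = 0.00379), and the call was kept in all 12 fits that left out 1 array. In wild-type hosts the difference was -0.44 ± 0.07 (1.36-fold lower, limma adjusted p = 0.0229), and in knockout hosts it was -0.27 ± 0.07 (adjusted p = 0.135). The wild-type call was lost when any array of Tm1N3 tumours in wild-type hosts, replicate 1 or 3 of Tm1G3 tumours in wild-type hosts, or replicate 2 or 3 of Tm1G3 tumours in knockout hosts was left out. All 12 values of this probe set lay below 4.22, the level under which the dimmest 25% of probe sets fell by their mean, and its name marks probes shared with other transcripts. Whether the signal comes from Bmp15 RNA was not tested.

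The start regions of these 2 genes are shown because they are the members whose averaged line difference passed. Each line gives the 250 bases before the gene's annotated start, 5′ to 3′ on the gene's strand, from RefSeq on build GRCm38.p6. Capitals mark the GC box GGGCGG in Tgfbr1 (chr4:47352972-47353221, plus strand) and the E-box CANNTG in Bmp15 (chrX:6320725-6320974, minus strand).
Tgfbr1: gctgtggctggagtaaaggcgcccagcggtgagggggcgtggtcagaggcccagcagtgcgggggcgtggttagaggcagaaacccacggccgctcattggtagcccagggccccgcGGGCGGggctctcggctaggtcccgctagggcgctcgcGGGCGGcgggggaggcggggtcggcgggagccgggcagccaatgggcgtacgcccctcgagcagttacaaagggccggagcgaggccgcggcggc
Bmp15: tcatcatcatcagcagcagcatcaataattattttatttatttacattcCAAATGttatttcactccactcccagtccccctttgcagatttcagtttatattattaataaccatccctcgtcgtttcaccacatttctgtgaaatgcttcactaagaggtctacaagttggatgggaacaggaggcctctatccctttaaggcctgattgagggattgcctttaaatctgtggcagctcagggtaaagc
The Tgfbr1 window held 2 GC boxes, 2 CCAAT boxes and no E-box, with 74.8% G or C and 29 CpG pairs, and the Bmp15 window held 1 E-box, no GC box and no CCAAT box, with 40.4% G or C and 2 CpG pairs. Both strands were searched, for the GC box and the E-box as spelled above and for the letters CCAAT, and no 2 motifs share bases in these windows. Over 32851 such windows of mouse genes, 32.7% held a GC box, 66.2% an E-box and 33.9% a CCAAT box, and the median G or C content was 52.4%. Of the 9 members 7 had a window in the table. The windows of Tgfb1, Acvr1, Acvr2a and Acvr2b held 5, 6, 2 and 3 GC boxes and that of Tgfb2 held 0. For Tgfb2 and Acvr2b the window lies inside the annotated span of the gene and not before it. A match is a description of the letters and says nothing of a factor's binding in these tumours.

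**Figure D1:**
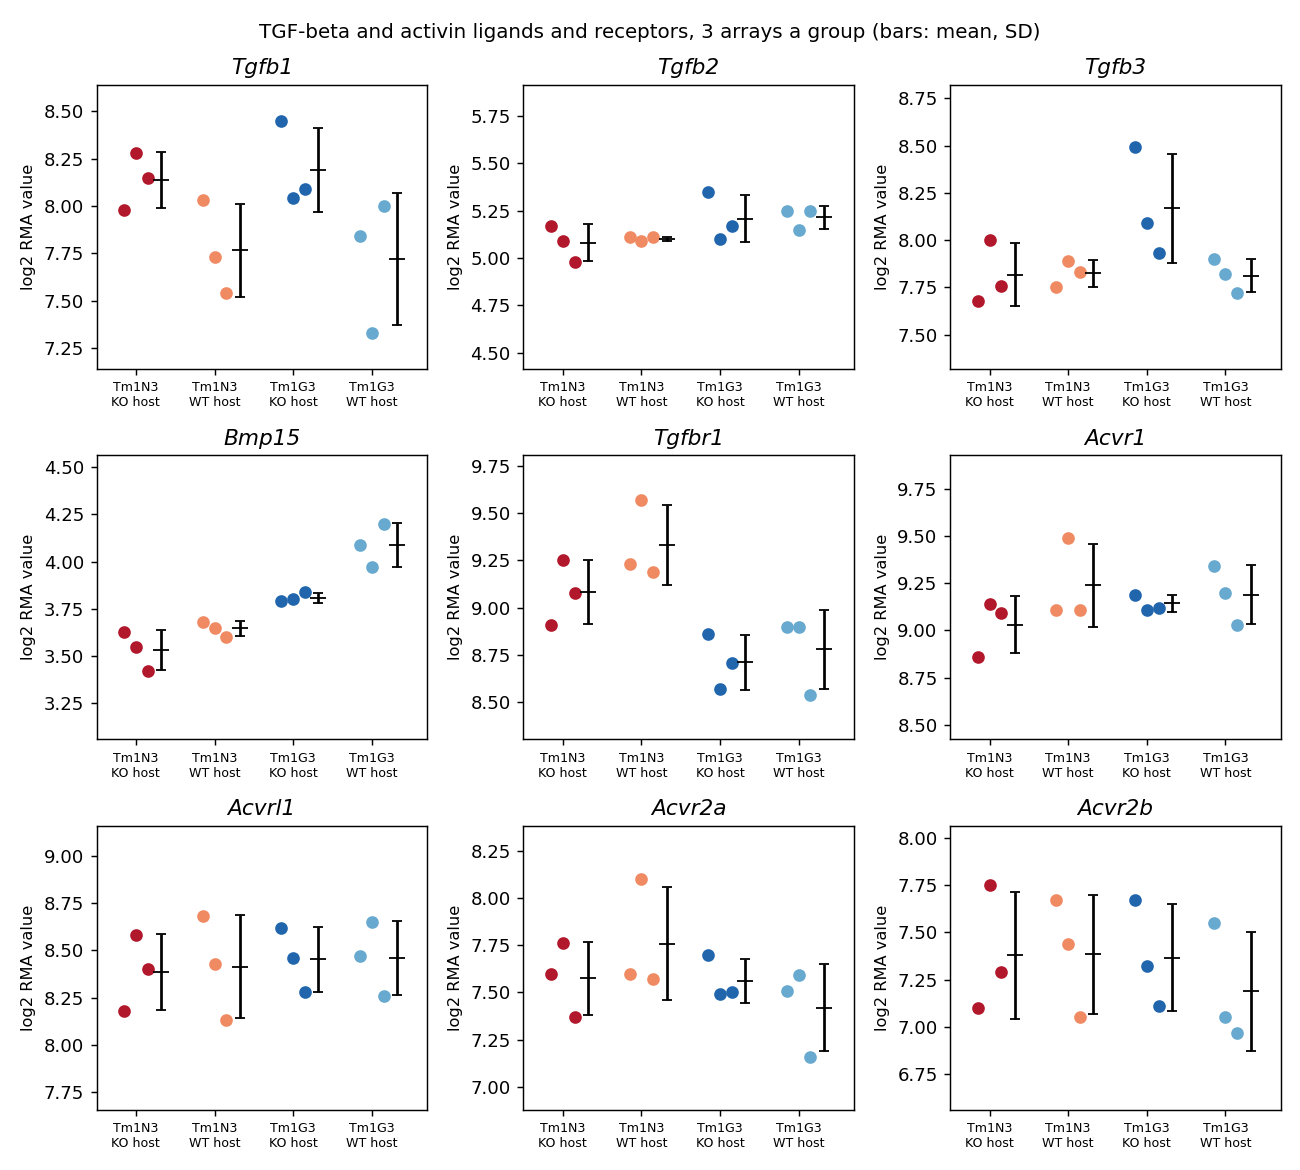
Log2 value of each of the 9 members on each of the 12 arrays, by tumour line and host, 3 arrays a group. Points are arrays, and the black bar beside each group is its mean with the SD. Tgfbr1 is higher and Bmp15 lower on every Tm1N3 array than on every Tm1G3 array, while the other 7 members overlap between the 6 arrays of either line.

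The other ligands did not pass the test between the lines. Tgfb1, the most widely studied TGF-beta isoform, read 7.98, 8.28 and 8.15 in Tm1N3 tumours of knockout hosts and 8.03, 7.73 and 7.54 in Tm1N3 tumours of wild-type hosts. In Tm1G3 tumours it read 8.45, 8.04 and 8.09 in knockout hosts and 7.84, 7.33 and 7.996 in wild-type hosts. The lines overlapped throughout, and the average line difference was -0.00 ± 0.13, with a 95% interval from -0.30 to 0.29.

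Tgfb2, an isoform with roles in development and in the eye, read 5.17, 5.09 and 4.98 in Tm1N3 tumours of knockout hosts, against 5.35, 5.10 and 5.17 in Tm1G3 tumours of knockout hosts. In wild-type hosts it read 5.11, 5.09 and 5.11 in Tm1N3 tumours, against 5.25, 5.15 and 5.25 in Tm1G3 tumours. The groups were apart in wild-type hosts, Tm1N3 tumours below, and overlapped in knockout hosts. The average difference was small, -0.12 ± 0.05 (95% interval -0.24 to -0.00), and did not pass (limma, adjusted p = 0.284).

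Tgfb3, an isoform known from palate and lung development, read 7.68, 8.002 and 7.76 in Tm1N3 tumours of knockout hosts, against 8.49, 8.09 and 7.93 in Tm1G3 tumours of knockout hosts. In wild-type hosts it read 7.75, 7.89 and 7.83 in Tm1N3 tumours, against 7.90, 7.82 and 7.72 in Tm1G3 tumours. Both lines overlapped in each host, and the highest array was replicate 1 of Tm1G3 tumours in knockout hosts. The difference was -0.35 ± 0.13 in knockout hosts (limma, adjusted p = 0.371) and 0.01 ± 0.13 in wild-type hosts (adjusted p = 0.990). Without that highest array the knockout-host value was -0.19.

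None of the other receptors passed between the lines. Acvr1, a type I receptor of the BMP and activin branch, averaged 9.03 ± 0.15 and 9.24 ± 0.22 in Tm1N3 tumours of knockout and wild-type hosts, against 9.14 ± 0.04 and 9.19 ± 0.16 in Tm1G3 tumours of the same hosts (SD, n = 3 each). Its average line difference was -0.03 ± 0.08, with an interval from -0.22 to 0.16, the narrowest of the 5 receptors. Acvrl1, a type I receptor of endothelial cells also called ALK1, averaged 8.38 ± 0.20 and 8.41 ± 0.27 in Tm1N3 tumours of knockout and wild-type hosts, against 8.45 ± 0.17 and 8.46 ± 0.20 in Tm1G3 tumours, a difference of -0.06 ± 0.11.

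The type II receptors Acvr2a and Acvr2b, which bind activins and several BMPs, were more spread between arrays. Acvr2a read 7.60, 8.10 and 7.57 in Tm1N3 tumours of wild-type hosts, against 7.51, 7.59 and 7.16 in Tm1G3 tumours of wild-type hosts. The groups overlapped through replicate 3 of the Tm1N3 tumours, just below the highest Tm1G3 array, and the difference there was 0.34 ± 0.16 (95% interval -0.02 to 0.70, limma adjusted p = 0.428), or 0.16 without replicate 2 of the Tm1N3 tumours. In knockout hosts Acvr2a read 7.60, 7.76 and 7.37 in Tm1N3 tumours, against 7.70, 7.49 and 7.50 in Tm1G3 tumours, a difference of 0.01 ± 0.16. The line difference of Acvr2a averaged 0.18 ± 0.12 over both hosts. Acvr2b ran from 7.05 to 7.75 in Tm1N3 tumours and from 6.97 to 7.67 in Tm1G3 tumours, with an average difference of 0.10 ± 0.16 and an interval from -0.25 to 0.46.

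Non-overlap of arrays is a coarser description of the same values and not a separate test. In wild-type hosts the arrays of the 2 lines were apart for 3 of 9 members, Tgfbr1 above and Bmp15 and Tgfb2 below, where 16.9% of all probe sets were apart. In knockout hosts they were apart for 2 of 9, Tgfbr1 and Bmp15, where 13.7% of all probe sets were apart. With 6 arrays against 6, Tgfbr1 and Bmp15 were apart, 2 of 9, where 3.29% of all probe sets were. The median line difference of the members was -0.03 averaged over hosts, and that of all probe sets was 0.00.

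**Figure D2:**
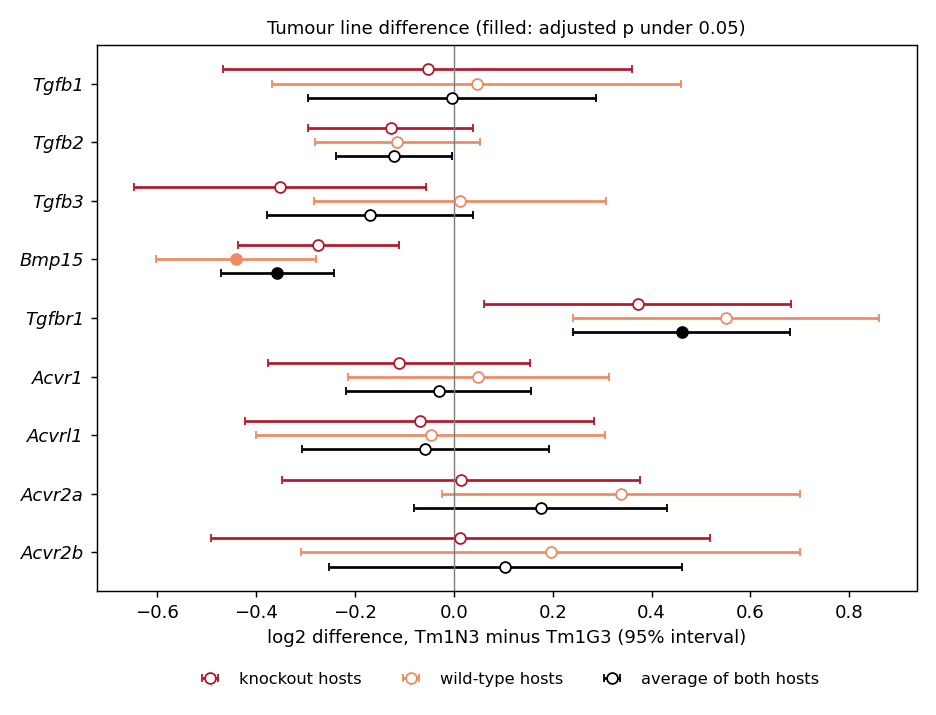
Difference between Tm1N3 and Tm1G3 tumours for each member, in knockout hosts, in wild-type hosts and averaged, on the log2 scale with 95% intervals. Filled points passed an adjusted p of 0.05: Bmp15 in wild-type hosts and on average, and Tgfbr1 on average, at 0.46.

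Which members differ with the host's galectin-3 was the other question, asked within each line. No member passed the test in either line or on average. In Tm1N3 tumours 0 of 9 members were called where 0% of all probe sets were called, and 0 of 9 had an unadjusted p under 0.05, against 4.33% of all probe sets. In Tm1G3 tumours 0 of 9 were called where 0% of all probe sets were called, and 3 of 9, Tgfb1, Tgfb3 and Bmp15, had an unadjusted p under 0.05, against 6.18% of all probe sets. Averaged over lines 0 of 9 were called where 0% of all probe sets were called, and Tgfb1 and Bmp15, 2 of 9, had an unadjusted p under 0.05, against 6.26% of all probe sets.

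Tgfb1 had the largest host difference of the 9 members on average. In knockout hosts it averaged 8.14 ± 0.15 in Tm1N3 tumours, against 7.77 ± 0.25 in wild-type hosts, a difference of 0.37 ± 0.19 (95% interval -0.04 to 0.78). In Tm1G3 tumours it averaged 8.19 ± 0.22 in knockout hosts, against 7.72 ± 0.35 in wild-type hosts (SD, n = 3 each), a difference of 0.47 ± 0.19. Averaged over lines the difference was 0.42 ± 0.13, or 1.34-fold, with an interval from 0.13 to 0.71 and a limma adjusted p of 0.680. The Tm1G3 arrays of the 2 hosts were apart, the lowest knockout array at 8.04 and the highest wild-type array at 7.996. The Tm1N3 arrays overlapped, since replicate 1 of the knockout hosts read 7.98 and replicate 1 of the wild-type hosts 8.03. Taken by replicate number, the knockout array minus the wild-type array gave -0.05, 0.55 and 0.61 in Tm1N3 tumours and 0.61, 0.71 and 0.09 in Tm1G3 tumours, higher in 5 of 6 pairs. As the Tm1G3 arrays of the 2 hosts were apart, every Tm1G3 pair had to be higher under any numbering. Without replicate 2 of Tm1G3 tumours in wild-type hosts, the lowest of all 12 arrays at 7.33, the Tm1G3 difference was 0.27.

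The hosts stood apart for Tgfb3 in 1 line. In Tm1G3 tumours it averaged 8.17 ± 0.29 in knockout hosts, against 7.81 ± 0.09 in wild-type hosts (SD, n = 3 each), a difference of 0.36 ± 0.13 (limma, adjusted p = 0.752), and the arrays were apart. Without replicate 1 of the knockout hosts, which read 8.49, it was 0.20. In Tm1N3 tumours both hosts averaged 7.82 and the difference was -0.01 ± 0.13. The difference between the lines in this host effect was -0.36 ± 0.19 (interaction, 95% interval -0.78 to 0.05, limma adjusted p = 0.996) and did not pass.

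The host difference of Bmp15 was -0.11 ± 0.07 within Tm1N3 tumours, where the arrays of the 2 hosts overlapped, and -0.28 ± 0.07 within Tm1G3 tumours, where the knockout arrays lay below the wild-type ones. Taken by replicate number, the knockout array minus the wild-type array gave -0.05, -0.10 and -0.18 in Tm1N3 tumours and -0.31, -0.17 and -0.36 in Tm1G3 tumours, lower in 6 of 6 pairs. As the Tm1G3 arrays of the 2 hosts were apart, every Tm1G3 pair had to be lower under any numbering. The average host difference of Bmp15, -0.20 ± 0.05, did not pass (limma, adjusted p = 0.680, and 0.678 or 0.325 with the number as a fixed or random replicate block). The same limits of a dim, shared probe set hold here. Tgfbr1 differed by host by -0.25 ± 0.14 in Tm1N3 and -0.07 ± 0.14 in Tm1G3 tumours, and its arrays overlapped in both. The 5 receptors ranged from -0.25 to -0.00 in Tm1N3 tumours and from -0.07 to 0.18 in Tm1G3 tumours. Tgfb2 had host differences of -0.02 ± 0.08 and -0.01 ± 0.08.

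By non-overlap, the hosts were apart for 0 of 9 members in Tm1N3 tumours, where 7.62% of all probe sets were apart. In Tm1G3 tumours they were apart for 3 of 9, Tgfb1 and Tgfb3 above and Bmp15 below, where 12.4% of all probe sets were. Over both lines they were apart for 0 of 9, where 0.562% of all probe sets were. For the interaction of line and host 0 of 9 members were called where 0% of all probe sets were called, and 0 of 9 had an unadjusted p under 0.05, against 2.81% of all probe sets. A line comparison within 1 host and a host comparison within 1 line share a group of arrays, so their values for a member are not independent of each other.

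**Figure D3:**
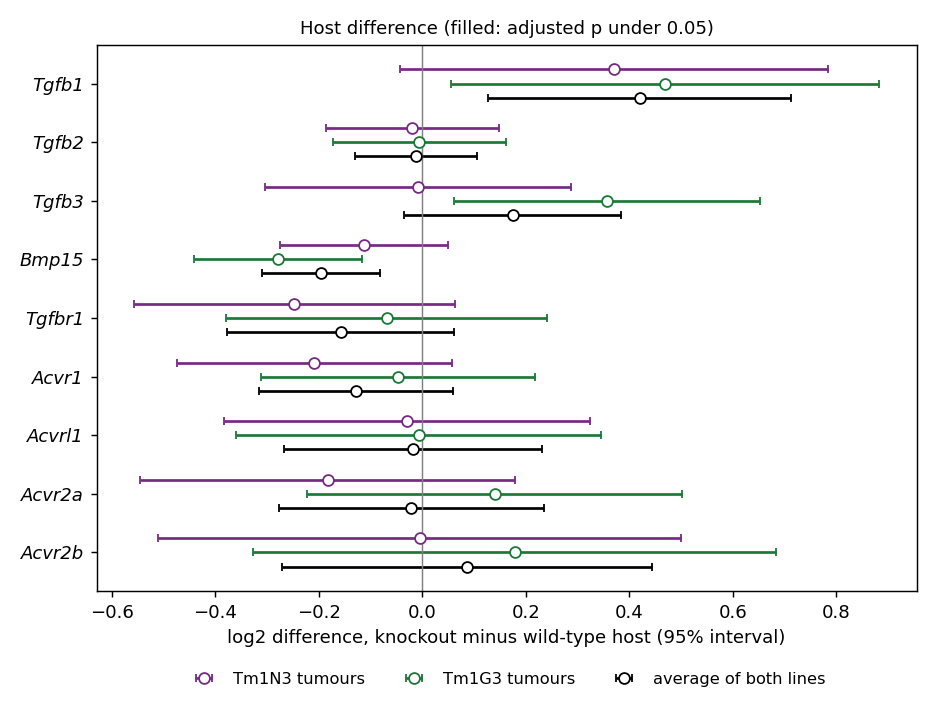
Difference between knockout and wild-type hosts for each member, in Tm1N3 tumours, in Tm1G3 tumours and averaged, on the log2 scale with 95% intervals. No point is filled, as none passed an adjusted p of 0.05, and the average interval lies above 0 for Tgfb1 and below 0 for Bmp15.

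The order of the 4 group means was separated beyond the spread for few members. For Bmp15 the means ran 3.53 ± 0.11, 3.65 ± 0.04, 3.81 ± 0.03 and 4.09 ± 0.11 in Tm1N3 tumours of knockout hosts, Tm1N3 tumours of wild-type hosts, Tm1G3 tumours of knockout hosts and Tm1G3 tumours of wild-type hosts (SD, n = 3 each). Only the lowest neighbours in that order overlapped. For Tgfbr1 the means in the same groups were 9.08 ± 0.17, 9.33 ± 0.21, 8.71 ± 0.15 and 8.78 ± 0.21, with the 2 Tm1N3 groups above the 2 Tm1G3 groups and overlap between hosts of either line. For Tgfb3 the Tm1G3 tumours of knockout hosts stood apart from the next group, and the other 3 groups overlapped and differed by less than their SD. For Tgfb1 the 2 knockout groups were above the 2 wild-type groups, with overlap at that step. For Acvr1, Acvrl1, Acvr2a, Acvr2b and Tgfb2 no 2 neighbouring groups in the order differed by more than the larger SD.

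Beyond the 9 members, a list of 110 other genes of the superfamily was followed by role. The array named 32 of them: 21 of 30 ligands, 5 of 15 receptors and co-receptors and 6 of 15 secreted inhibitors and binding proteins. None of the listed genes of latency, intracellular signalling or transcriptional response was on a named probe set, so Smad signalling itself was not measured here. None of the 32 passed the test in any of the 7 comparisons (limma), and 2 of them, Tgfbr3 and Gdf5, had an unadjusted p under 0.05 in the averaged line comparison, where 16.4% of all probe sets did. The median line difference of the 32, averaged over hosts, was 0.00.

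The 5 other receptors and co-receptors measured covered only part of the list. Acvr1b, Acvr1c and Eng, for example, were not on named probe sets. Tgfbr2, the type II receptor that pairs with Tgfbr1, averaged 9.70 in Tm1N3 and 9.82 in Tm1G3 tumours, by the brighter of its probe sets, a difference of -0.13 ± 0.15 (limma, adjusted p = 0.816). Tgfbr3, the co-receptor betaglycan, which presents Tgfb2 to the type II receptor, ran from 7.64 to 8.92 in Tm1N3 tumours of knockout hosts and from 7.95 to 8.56 in Tm1N3 tumours of wild-type hosts. In Tm1G3 tumours it read 8.68, 8.45 and 8.54 in knockout hosts and 8.70, 8.65 and 8.87 in wild-type hosts. In each host replicate 3 of the Tm1N3 tumours was the highest of its group. The lines overlapped in knockout hosts and were apart in wild-type hosts, Tm1N3 tumours below. The average difference of -0.48 ± 0.20 did not pass (limma, adjusted p = 0.244), but did without replicate 3 of Tm1N3 tumours in knockout hosts, at -0.66 (adjusted p = 0.0172), the only one of 12 fits, added after the data were seen, that passed. The BMP receptors Bmpr1a, Bmpr1b and Bmpr2 had average line differences of 0.04, 0.01 and 0.05.

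Of the other ligands, 12 of 21 were nominally higher and 9 lower in Tm1N3 tumours, from -0.13 for Bmp4 to 0.12 for Bmp10. Their levels differed widely, with group means of 2.92 to 2.99 for Gdf6, 3.62 to 3.83 for Bmp3 and 8.07 to 8.21 for Bmp1. Those of Gdf6 and Bmp3 lay below 4.22, the bound of the dimmest 25% of probe sets. Whether the signal of such dim probe sets comes from the named RNA was not tested. That list of ligands holds Bmp1, which by its known function is a procollagen protease. The activin subunit genes Inhbc and Inhbe differed by 0.04 and -0.06, and the activin binding protein Fst by -0.02 ± 0.16. The listed genes Inha, Inhba and Inhbb were not on named probe sets, so the activin ligands were measured only in part. Decorin (Dcn) and fibromodulin (Fmod), matrix proteoglycans that bind TGF-beta, were at -0.51 ± 0.47 and -0.40. The Dcn value ran from -0.87 to -0.27 when 1 array was left out. The Fmod value rested on replicate 1 of Tm1G3 tumours in knockout hosts, highest of the 12 arrays, and was -0.02 without it.

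**Figure D4:**
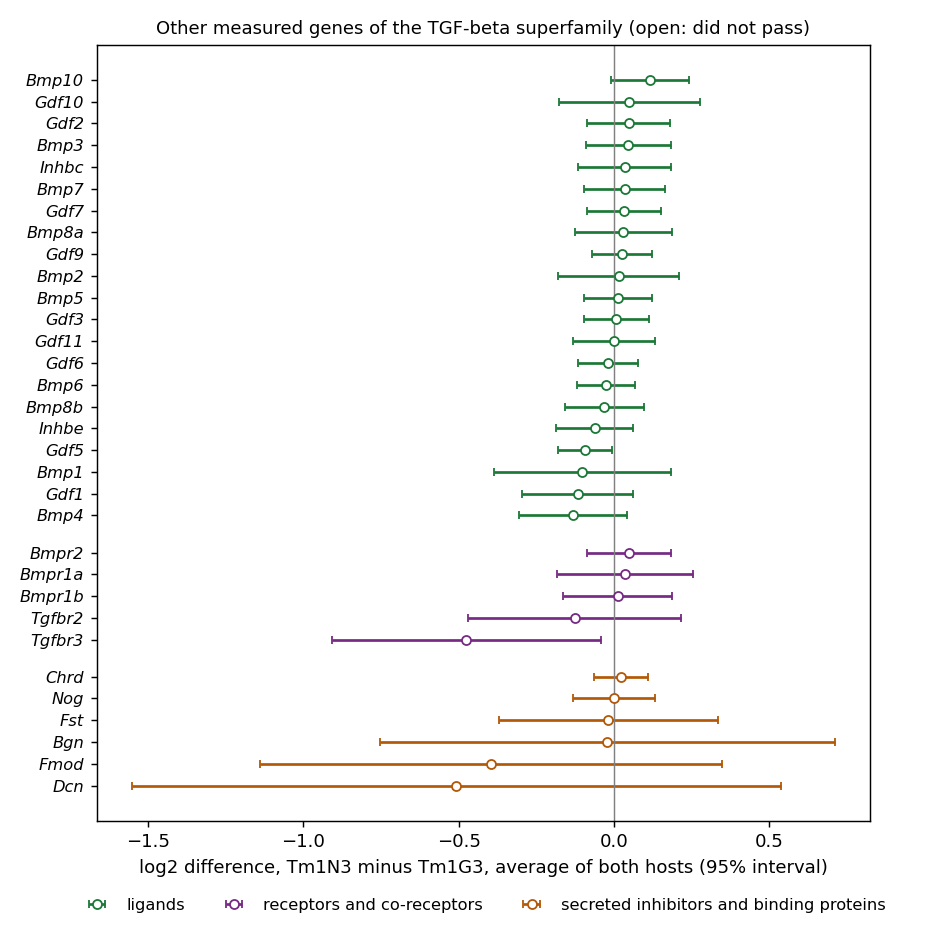
Line difference averaged over both hosts for the 32 other measured genes of the superfamily, on the log2 scale with 95% intervals, grouped as ligands, receptors and secreted binding proteins. No gene passed the test, and the ligands, some of them read by dim probe sets, lie between -0.13 and 0.12.

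Single markers of several cell types, the melanocyte list included, passed between the lines beside Tgfbr1 and Bmp15. Of 23 measured markers from lists of 6 cell types, 5 passed the averaged line test, where 4.25% of all probe sets did. Mcam (0.66) and Fbln5 (0.76) were higher, and Kit (-0.99), Ccl5 (-0.65) and Icam2 (-0.40) lower in Tm1N3 tumours (limma, adjusted p at most 0.0336). The other endothelial and fibroblast markers did not pass and did not share a direction. Emcn (0.23), Cd34 (0.17) and Pecam1 (-0.13) stand beside Icam2 in the endothelial list. Pdgfra (0.06), Pdgfrb (-0.00), Lum (-0.00) and Dcn (-0.51) stand beside Fbln5 in the fibroblast list. The summed linear level of the 4 measured T and NK cell markers lay between 269 and 399 on Tm1N3 arrays and between 394 and 594 on Tm1G3 arrays. Most of that sum is Ccl5, and the other markers of the list differed by -0.15 for Klrd1, -0.07 for Cd2 and 0.08 for Klrk1, none of which passed. That of 4 endothelial markers lay between 1261 and 2287 on Tm1N3 arrays and between 1464 and 2540 on Tm1G3 arrays. That of 5 fibroblast markers lay between 415 and 1574 on Tm1N3 arrays and between 609 and 1212 on Tm1G3 arrays. That of 4 macrophage markers lay between 346 and 1189 on Tm1N3 arrays and between 585 and 1101 on Tm1G3 arrays. All 4 macrophage markers were nominally lower in Tm1N3 tumours on average, from -0.54 for Adgre1 to -0.08 for Siglec1, and none passed. The summed level of 4 neutrophil markers lay between 113 and 149 on Tm1N3 arrays and between 114 and 268 on Tm1G3 arrays. The 2 melanocyte markers summed to between 1165 and 1786 on Tm1N3 arrays and between 828 and 1377 on Tm1G3 arrays. These ranges overlapped between the lines for all 6 lists, by little for the T and NK markers. By host, none of the 23 markers passed (limma), and Kit and Cxcr1 had an unadjusted p under 0.05 in at least 1 of the 3 host comparisons. The lowest single value was 2.91, in the T and NK list, and the lowest over all probe sets was 2.14. These log2 values do not tell whether a marker was detected. The part of the markers in the differences of Tgfbr1, Bmp15 and Tgfb1 was not tested.

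Genes whose pattern over the 12 arrays was most like a member's were found by the root mean square difference after centring each gene on its own mean, among 908 named genes. For Tgfbr1 they were Galc, Fut11 and Mgat2, at 0.113, 0.134 and 0.145, where the deviation of Tgfbr1 from its own mean was 0.290. Bmp15, with a deviation of 0.218, was closest to St6galnac6 at 0.105, Igfals at 0.106 and Galnt10 at 0.116. Tgfb1, with a deviation of 0.296, was closest to Tmsb10 at 0.140, with Pdgfrb and Chst12 next at 0.219 and 0.221. For Tgfb3 they were Hbegf, Pdgfa and Il17ra, at 0.111, 0.113 and 0.116, against a deviation of 0.209. The type II receptors Acvr2a and Acvr2b were closest to C1galt1c1 at 0.103 and Extl3 at 0.118, against deviations of 0.216 and 0.268. Acvr1 was closest to Cd164 at 0.0765 with a deviation of 0.148, Acvrl1 to Jund at 0.117 with a deviation of 0.177 and Tgfb2 to Il21 at 0.0627 with a deviation of 0.0924. These likenesses are descriptions over 12 arrays that share the same lines and hosts. The median range of the 9 members over the 12 arrays was 0.783, and that of all probe sets 0.439.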

How the data were processed

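RNA of 12 tumours was isolated with Trizol and hybridised as biotinylated cRNA, per the labels' protocols. The authors deposited log2 values of an Affymetrix array. Their processing notes name RMA alone and give no version. The values run from 2.14 to 13.9, and array medians lie within 0.0945. No scanner files were used here, so signal over background is unknown, and the number of arrays limits precision. Probe sets were named by RefSeq accession through a mouse gene table of GRCm38.p6: 963 of 1246 gave 1 symbol. For 3 members, Tgfb2, Acvrl1 and Bmp15, the probe set's suffix marks shared probes.

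Groups come from the titles. Group means of all 12 arrays were fitted with limma 3.58.1 in R 4.3.3 (8 residual and 2.39 prior degrees of freedom), and 7 contrasts were adjusted by Benjamini-Hochberg over 1246 probe sets, threshold 0.05. Errors are SD for levels and moderated SE for differences, and folds are antilogs. The procedure was tested on simulated data. All 9 members are named, each by its brightest probe set, with genes of the superfamily and marker lists. Members and lists were chosen with earlier results of these data known. Replicate numbers recur in each group. Within a line, the deviations of knockout and wild-type arrays with the same number had correlations of 0.184 to 0.752 (Tm1N3) and 0.249 to 0.308 (Tm1G3). Every value exceeded 0.1, so same-numbered arrays were set side by side for host differences and blocked in alternative fits. The reported differences, SEs and p-values come from fits without a block, unless a block is named. Between lines the range was -0.660 to 0.544, and neither the main fit nor the random block assumed pairing there. The fixed block did, since it gave each number a term shared by all groups. The titles give no meaning for the numbers. Alternatives were another normalization, centring, spread model, dim filter, probe-set rule, blocks, 6-array fits and leaving out arrays, the last also for Tgfbr3, Dcn and Fmod, which was chosen after seeing the data.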

Additional observations from a re-analysis of the deposited data

How the results depend on the processing

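Of the 9 members 1 was called between the lines in wild-type hosts. That count was 2 after quantile normalizing again, where Tgfbr1 joined Bmp15 at 0.59 (limma adjusted p = 0.0443). It was 0 after centring each array on its median (Bmp15 adjusted p = 0.0535), 0 without the dimmest 25% of probe sets, which left Bmp15 out, and 0 with only the 6 arrays of these groups (Bmp15 adjusted p = 0.0682). It ran from 0 to 1 when 1 array was left out. The count averaged over hosts, 2, was 1 without the dimmest probe sets and ran from 1 to 2 when 1 array was left out. The other counts of called members, all 0, stayed at 0 in every alternative run. With the replicate block as a fixed term, the averaged adjusted p was 0.0322 for Tgfbr1 and 0.00983 for Bmp15, and as a random block 0.0498 and 0.00897. Neither block changed a call of a member. Taking the mean of a gene's probe sets changes no member's value, as each has 1.

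Quantile normalizing again turned the sign of some differences that had not passed: Acvrl1 to 0.0078 in wild-type hosts, 0.032 in knockout hosts and 0.020 on average, and Tgfb1 to 0.0085 in knockout hosts and 0.030 on average. It turned Tgfb2 to 0.043 by host in Tm1N3 tumours, 0.025 by host in Tm1G3 tumours, 0.034 by host on average and 0.018 for the interaction, and Acvrl1 to 0.024 for the interaction. Centring turned host differences to 0.0015 for Tgfb2, 0.013 for Tgfb3 and 0.016 for Acvr2b in Tm1N3 tumours, to 0.011 for Tgfb2 and 0.0094 for Acvrl1 in Tm1G3 tumours, and to 0.0062 for Tgfb2 and 0.00024 for Acvrl1 on average. Over all probe sets, the averaged line calls were 16 higher and 37 lower as deposited, 29 and 28 after quantile normalizing again, and 15 and 37 after centring.

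Leaving out 1 array in turn, line differences in wild-type hosts ran from -0.15 to 0.18 for Tgfb1, -0.033 to 0.055 for Tgfb3, -0.076 to 0.12 for Acvr1 and -0.18 to 0.094 for Acvrl1. In knockout hosts they ran from -0.13 to 0.075 for Tgfb1, -0.16 to 0.035 for Acvrl1, -0.076 to 0.12 for Acvr2a and -0.17 to 0.16 for Acvr2b. On average they ran from -0.10 to 0.065 for Tgfb1, -0.094 to 0.012 for Acvr1 and -0.12 to 0.013 for Acvrl1. Host differences in Tm1N3 tumours ran from -0.063 to 0.032 for Tgfb2, -0.10 to 0.059 for Tgfb3, -0.17 to 0.10 for Acvrl1 and -0.19 to 0.14 for Acvr2b. In Tm1G3 tumours they ran from -0.076 to 0.047 for Tgfb2, -0.19 to 0.0047 for Tgfbr1, -0.13 to 0.028 for Acvr1 and -0.11 to 0.088 for Acvrl1. On average over lines they ran from -0.047 to 0.014 for Tgfb2, -0.089 to 0.047 for Acvrl1, -0.087 to 0.065 for Acvr2a and -0.0064 to 0.18 for Acvr2b. The interaction ran from -0.24 to 0.098 for Tgfb1, -0.066 to 0.057 for Tgfb2 and -0.16 to 0.11 for Acvrl1. None of these differences had passed. The causes were not tested. Where a group is left with 2 arrays, the fit takes its spread from all groups.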
